A study of Mus musculus with 4 samples.

Results

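The 10 genes described here belong to the unfolded protein response, the signalling system by which cells adjust to a load of misfolded protein in the endoplasmic reticulum (ER). They are the sensor genes Ern1, Atf6 and Eif2ak3, the transcription factor genes Xbp1, Atf4 and Ddit3, and the target genes Hspa5, Dnajb9, Herpud1 and Trib3. They were chosen by name, and all 10 were found by their symbols among the 24421 genes of the count table. All 10 passed the filter on low counts that left 13296 genes for testing. RNA sequencing had been carried out on LSK cells, the bone marrow fraction without lineage markers but with Sca1 and Kit, which holds the blood stem cells and early multipotent progenitors. The cells were sorted from 2 groups of mice aged 13 to 15 months, with 2 libraries of p53R248W/+ mice, which carry a missense mutation in 1 allele of the tumour suppressor p53, and 2 libraries of wild-type (WT) mice. No treatment is named for either group. Nothing in the labels ties the libraries to separate animals, so p-values here speak for the variation among these 4 libraries, part of which may be technical.

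Each sensor spans the ER membrane. IRE1, encoded by Ern1, cuts the Xbp1 messenger RNA so that it is spliced into the form encoding an active transcription factor. PERK, encoded by Eif2ak3, phosphorylates the translation factor eIF2alpha, which slows protein synthesis while favouring translation of Atf4. ATF6 moves to the Golgi apparatus, where proteases release its transcription factor domain. BiP, the ER chaperone encoded by Hspa5, binds the sensors in unstressed cells and is itself a target of ATF6 and XBP1. Blood stem cells are known for a low rate of protein synthesis and for their sensitivity to ER stress. Much of this response is set by splicing, translation and cleavage, none of which a count of reads per gene shows.

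Total counts were 14820759 and 12111126 in the p53R248W/+ libraries and 14544290 and 14109906 in the WT libraries, and a count of 3 corresponded to at most 0.248 CPM (counts relative to the TMM-scaled size of the library). LSK markers were expressed in every library, with Kit at 1182 and 1105 CPM in p53R248W/+ cells and at 911 and 998 CPM in WT cells. Ly6a, which encodes Sca1, was at 81.1 and 70.8 CPM in p53R248W/+ cells and at 40.2 and 82.9 CPM in WT cells. The B cell factor gene Pax5, the T cell gene Cd3g and the haemoglobin genes Hbb-b1 and Hba-a1 were listed at 0 in all 4 libraries, while other genes of their lists were present. T and NK cell markers summed to 90.0 and 79.5 CPM in p53R248W/+ cells and to 73.3 and 86.3 CPM in WT cells, and erythroid markers to 37.5 and 28.2 CPM in p53R248W/+ cells and to 35.3 and 30.9 CPM in WT cells. Markers of mast cells, basophils and eosinophils summed to 44.4 and 68.5 CPM in p53R248W/+ cells and to 35.7 and 28.9 CPM in WT cells. In that list 7 of 7 tested genes had a log2 fold change above 0, as had 6647 of all 13296 tested genes. Immediate early genes, which respond to stress and cell handling, were uneven. Their 14 members summed to 4278 and 4942 CPM in the p53R248W/+ libraries and to 9027 and 5467 CPM in the WT libraries, and each of the 14 was highest in WT replicate 1. The 15 markers of B cells and plasma cells, which are rich in ER, summed to 215 and 102 CPM in p53R248W/+ cells and to 112 and 84.2 CPM in WT cells. Markers of stroma and endothelium summed to 166 and 129 CPM in p53R248W/+ cells and to 87.2 and 81.1 CPM in WT cells, with Cxcl12 and Pdgfra at 0 throughout. Most of that sum was Pecam1, at 105 and 100 CPM in p53R248W/+ cells and at 70.4 and 50.7 CPM in WT cells. Those of neutrophils and monocytes summed to 1081 and 915 CPM in p53R248W/+ cells and to 1832 and 659 CPM in WT cells. Trp53 itself was at 245 and 332 CPM in p53R248W/+ cells and at 362 and 302 CPM in WT cells, and gene counts do not separate its alleles. In bulk samples, fewer cells of a type and less RNA per cell cannot be told apart.

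None of the 10 genes passed an adjusted p of 0.05 in the comparison of p53R248W/+ with WT cells by edgeR's quasi-likelihood test, where the share over all 13296 genes was 0%. The member with the smallest p was Hspa5, 1.36-fold lower in p53R248W/+ cells, and it was alone among the 10 at an unadjusted p under 0.05. Such p-values were found for 2.86% of all genes on the lower side and for 3.01% on the higher side, 780 genes in all. DESeq2, limma-voom and edgeR's likelihood ratio test also called 0 of the 10, and over the whole table they called 6, 0 and 4 genes. Hspa5, Herpud1 and Ddit3 were each below both WT libraries in both p53R248W/+ libraries, an arrangement seen for 16.6% of all genes. Ern1 and Dnajb9 were higher in each p53R248W/+ library than in either WT library, as were 16.9% of all genes. The other 5 genes overlapped between genotypes. Of the 10, 5 had a log2 fold change below 0, against 50.0% of all genes, and their median was -0.017, against -8.8e-05 over all genes. The 10 thus lay evenly on both sides of 0.

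**Figure D1:**
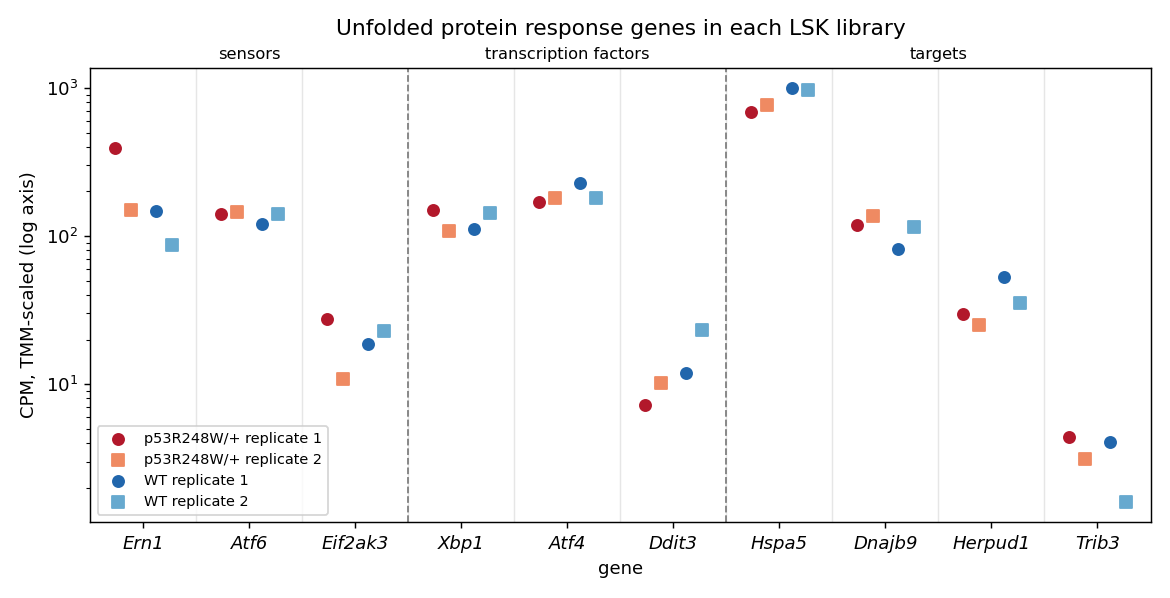
Level of each gene in CPM on a log axis in the 2 p53R248W/+ and the 2 WT libraries, 1 point per library, ordered from sensors to targets. Hspa5, Herpud1 and Ddit3 lie below both WT points in both p53R248W/+ libraries, and Ern1 stands at 393 CPM in p53R248W/+ replicate 1 against 87.7 to 149 CPM in the other libraries.

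Levels of different genes were compared per kilobase of exon, as RPKM (CPM divided by the exon length in kilobases). Hspa5 was the most abundant of the 10, at 262 to 381 RPKM over the 4 libraries. Atf4 followed at 97.7 to 133 RPKM. Dnajb9 at 44.1 to 73.2, Xbp1 at 48.5 to 66.3 and Ern1 at 22.1 to 98.8 RPKM overlapped one another, and their order is within the spread between libraries. In p53R248W/+ replicate 1 alone, Ern1 at 98.8 RPKM was as high as Atf4 at 97.7 RPKM. Herpud1 at 13.3 to 28.4, Atf6 at 16.2 to 19.6 and Ddit3 at 8.36 to 26.5 RPKM formed a further overlapping group, and Herpud1 and Ddit3 also reached the lowest Ern1 library. Eif2ak3 at 2.42 to 6.17 RPKM and Trib3 at 0.787 to 2.14 RPKM were the lowest, and both ranges lay apart from their neighbours. The transcript of BiP thus stood above that of every sensor in all 4 libraries, by the widest margin over PERK.

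Among the sensors, Ern1 (mm10 chromosome 11, 106397620 to 106487796, minus strand, 22 exon blocks) differed between genotypes by the largest amount. Ern1 was at 393 and 149 CPM in p53R248W/+ cells, against 148 and 87.7 CPM in WT cells. p53R248W/+ replicate 1 was far above the rest, while p53R248W/+ replicate 2 and WT replicate 1 were nearly equal. The log2 fold change of Ern1 was 1.21 ± 0.50 (SE, n = 2 per genotype), with a 95% interval from -0.0048 to 2.43 and an adjusted p of 0.824 (edgeR quasi-likelihood test, unadjusted p 0.0507). Without p53R248W/+ replicate 1 it was 0.34, without p53R248W/+ replicate 2 it was 1.73, and without WT replicate 1 and replicate 2 it was 1.64 and 0.89.

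p53R248W/+ replicate 1 was also the library with the highest summed level of the B cell and plasma cell markers, and 8 of those 15 markers were highest there. Of the 9 that were tested, 8 had a log2 fold change above 0 and 1 below it, where 50.0% of all genes were below it. Irf4, a transcription factor of plasma cells and other lymphoid and myeloid cells, was at 66.9 and 18.5 CPM in p53R248W/+ cells and at 22.9 and 11.1 CPM in WT cells. Blnk, an adaptor gene of B cell signalling, was at 18.3 and 5.70 CPM in p53R248W/+ cells and at 1.39 and 2.38 CPM in WT cells. Among the markers of the B cell receptor complex, Cd79b was at 20.2 and 12.1 CPM in p53R248W/+ cells and at 4.67 and 8.98 CPM in WT cells. Pax5 was at 0 in every library. The plasma cell markers were not alike, with Sdc1 at 7.35 and 4.21 CPM in p53R248W/+ cells and at 6.49 and 13.3 CPM in WT cells, and Mzb1 at 5.26 and 0.248 CPM in p53R248W/+ cells and at 4.39 and 0.561 CPM in WT cells. Prdm1, which encodes the plasma cell factor BLIMP1, was at 11.0 and 8.92 CPM in p53R248W/+ cells and at 11.2 and 3.02 CPM in WT cells. The plasma cell receptor gene Tnfrsf17 had 0 and 3 counts in p53R248W/+ cells and 0 and 0 counts in WT cells. The part of these markers in the Ern1 difference was not tested.

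Atf6 (chromosome 1, 170704457 to 170867771, minus strand) was the most even sensor, at 140 and 146 CPM in p53R248W/+ cells and at 121 and 142 CPM in WT cells. Its log2 fold change was 0.12 ± 0.22 (SE), with an interval from -0.34 to 0.58. Eif2ak3 (chromosome 6, 70844527 to 70905240, plus strand) was at 27.7 and 10.9 CPM in p53R248W/+ cells and at 18.8 and 22.9 CPM in WT cells. The p53R248W/+ libraries of Eif2ak3 bracketed those of WT, and the log2 fold change was -0.057 ± 0.51 (SE). Its sign turned to 0.095 without WT replicate 2 and to 0.41 without p53R248W/+ replicate 2, and it was -0.93 without p53R248W/+ replicate 1.

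The balance among the sensors was read within each library, where it does not depend on scaling between libraries. Ern1 made up 79.8% and 63.0% of the summed sensor RPKM in p53R248W/+ cells and 64.7% and 47.7% in WT cells. Atf6 made up 15.2% and 32.9% in p53R248W/+ cells and 28.1% and 41.3% in WT cells. Eif2ak3 was the smallest part throughout, at 4.98% and 4.08% in p53R248W/+ cells and at 7.24% and 11.0% in WT cells, and each p53R248W/+ library had the lower share. Its own level did not follow that order, at 6.17 and 2.42 RPKM in p53R248W/+ cells and at 4.17 and 5.09 RPKM in WT cells. In p53R248W/+ replicate 1, where Eif2ak3 was highest, the sum by which it was divided held Ern1 at 98.8 RPKM. The sums were 124 and 59.5 RPKM in p53R248W/+ cells and 57.6 and 46.2 RPKM in WT cells. p53R248W/+ replicate 2 and WT replicate 1 were close in both the Ern1 share and the total.

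**Figure D2:**
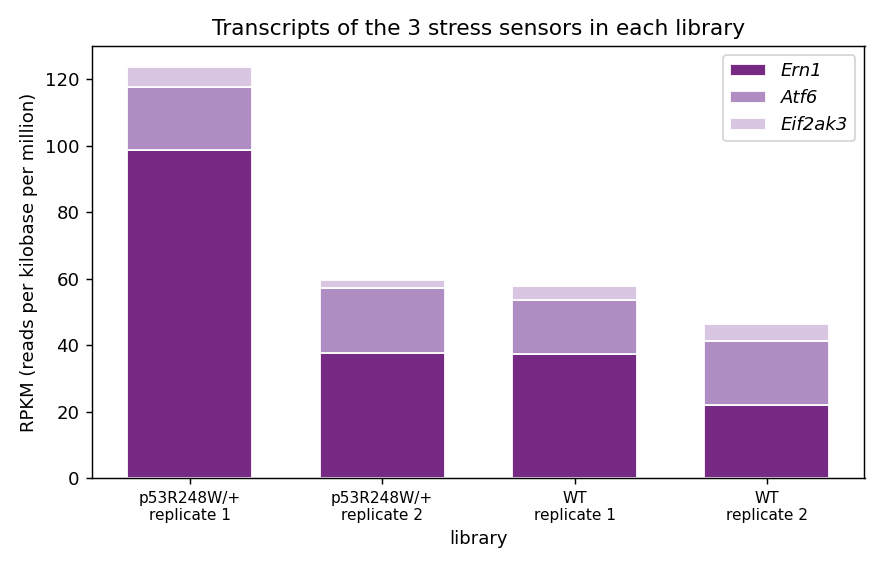
Stacked bars give the RPKM of Ern1, Atf6 and Eif2ak3 in each library, p53R248W/+ left and WT right. The bar of p53R248W/+ replicate 1 reaches 124 RPKM and the other 3 lie between 46.2 and 59.5 RPKM, with Ern1 the largest part in every bar.

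Of the transcription factors, Xbp1 (chromosome 11, 5520641 to 5525993, plus strand) was at 149 and 109 CPM in p53R248W/+ cells and at 112 and 144 CPM in WT cells. The genotypes overlapped, and the log2 fold change was 0.023 ± 0.24 (SE), with an interval from -0.48 to 0.53. The highest Xbp1 and the highest Ern1 were in the same library, p53R248W/+ replicate 1, while WT replicate 2 was the next for Xbp1 and the lowest for Ern1. The counts do not separate spliced from unspliced Xbp1. Atf4 (chromosome 15, 80255184 to 80257545, plus strand) was at 169 and 182 CPM in p53R248W/+ cells and at 230 and 180 CPM in WT cells. WT replicate 1 alone stood apart for Atf4, the log2 fold change was -0.23 ± 0.20 (SE), and it was -0.034 without that library.

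Ddit3 (chromosome 10, 127290793 to 127296288, plus strand) encodes CHOP, a factor induced by ATF4 under lasting stress that favours cell death. It was at 7.28 and 10.2 CPM in p53R248W/+ cells and at 11.9 and 23.1 CPM in WT cells, from 108 and 124 against 170 and 329 counts. Both p53R248W/+ libraries were below both WT libraries, with WT replicate 2 the highest by a wide margin. The log2 fold change of Ddit3 was -1.02 ± 0.61 (SE), a 2.02-fold lower level, with an interval from -2.30 to 0.27 (adjusted p = 0.835, edgeR quasi-likelihood test). It was -0.45 without WT replicate 2 and -1.42 without WT replicate 1. The Ddit3 exons share 68 of their 871 bases with exons of Mars, which lies on the other strand, and whether the counting used strand was not given in the sources used here. Mars was at 53.4 and 82.8 CPM in p53R248W/+ cells and at 88.6 and 61.2 CPM in WT cells, and its part in the Ddit3 values was not tested.

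Hspa5 (chromosome 2, 34772090 to 34776529, plus strand, 8 exon blocks) gave the most repeatable difference among the targets. It was at 685 and 765 CPM in p53R248W/+ cells, against 996 and 977 CPM in WT cells, from 9262 to 14278 counts per library. The WT libraries were within 0.027 of each other on the log2 scale, the p53R248W/+ libraries within 0.16, and the 4 pairings of a p53R248W/+ with a WT library gave differences of -0.54 to -0.35. Means were 725 ± 56.7 CPM in p53R248W/+ cells and 987 ± 12.9 CPM in WT cells (SD, n = 2 each). The log2 fold change of Hspa5 was -0.45 ± 0.13 (SE), with an interval from -0.73 to -0.17. Its unadjusted p of 0.00366 was the 46th smallest of all genes and gave an adjusted p of 0.824 (edgeR quasi-likelihood test), so it did not pass. Leaving out each library in turn gave -0.53 to -0.37 at unadjusted p of 0.00834 to 0.0439 in that test. All 14 immediate early genes also had a log2 fold change below 0, against 50.0% of all genes. Of the 14, 11 were below both WT libraries in both p53R248W/+ libraries, against 16.6% of all genes. Without WT replicate 1, where the immediate early genes were highest, the log2 fold change of Hspa5 was -0.43. The part of the immediate early genes in the Hspa5 difference was not tested.

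Ratios within a library, which need no scaling between libraries, were also taken for Hspa5. It held 17.2% and 19.7% of the summed RPKM of 27 genes for ER chaperones and folding enzymes, itself included, in p53R248W/+ cells, and 21.6% and 23.0% in WT cells. The rest of that sum was 1259 and 1195 RPKM in p53R248W/+ cells and 1379 and 1250 RPKM in WT cells. Hsp90b1, the ER form of the chaperone HSP90 and chosen here after its values were seen, was at 802 and 767 CPM in p53R248W/+ cells and at 706 and 787 CPM in WT cells (log2 fold change 0.071 ± 0.14, SE). The ratio of Hspa5 to Hsp90b1 RPKM was 0.901 and 1.05 in p53R248W/+ cells and 1.49 and 1.31 in WT cells. Since Hsp90b1 was chosen with its values known, this ratio restates the Hspa5 values and is no separate support. Other chaperone genes, such as Calr and Dnajb11 below, had lower levels in p53R248W/+ cells.

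Herpud1 (chromosome 8, 94386500 to 94395358, plus strand) encodes an ER membrane protein that helps to send misfolded proteins for degradation. It was at 29.9 and 24.9 CPM in p53R248W/+ cells, against 53.2 and 35.2 CPM in WT cells, and the genotypes did not overlap. WT replicate 1 was well above the other 3 libraries. The log2 fold change of Herpud1 was -0.68 ± 0.39 (SE), a 1.60-fold lower level, with an interval from -1.51 to 0.15 (adjusted p = 0.835, edgeR quasi-likelihood test). It was -0.35 without WT replicate 1 and -0.94 without WT replicate 2. WT replicate 1 is also the library with the highest immediate early genes, whose part in the Herpud1 values was not tested.

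Dnajb9 (chromosome 12, 44205897 to 44210068, minus strand) encodes ERdj4, a co-chaperone of BiP and a target of spliced XBP1. It was at 118 and 137 CPM in p53R248W/+ cells, against 82.3 and 116 CPM in WT cells. The genotypes were separate only by the gap between 118 and 116 CPM, with WT replicate 1 the low library. The log2 fold change was 0.36 ± 0.25 (SE), with an interval from -0.17 to 0.88. It was 0.13 without WT replicate 1 and 0.63 without WT replicate 2. Dnajb9 and Hspa5, both targets of the response, therefore lay on opposite sides of 0.

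Trib3 (chromosome 2, 152337425 to 152344060, minus strand), a pseudokinase gene induced by ATF4 and CHOP, rested on the fewest counts of the 10. It had 65 and 38 counts in p53R248W/+ cells and 58 and 23 counts in WT cells, or 4.38 and 3.14 CPM against 4.05 and 1.61 CPM. The libraries overlapped, and the log2 fold change of 0.43 ± 0.94 (SE) had an interval from -1.54 to 2.40. A 2-fold difference in either direction lies inside that interval and could not be told from none with these libraries.

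**Figure D3:**
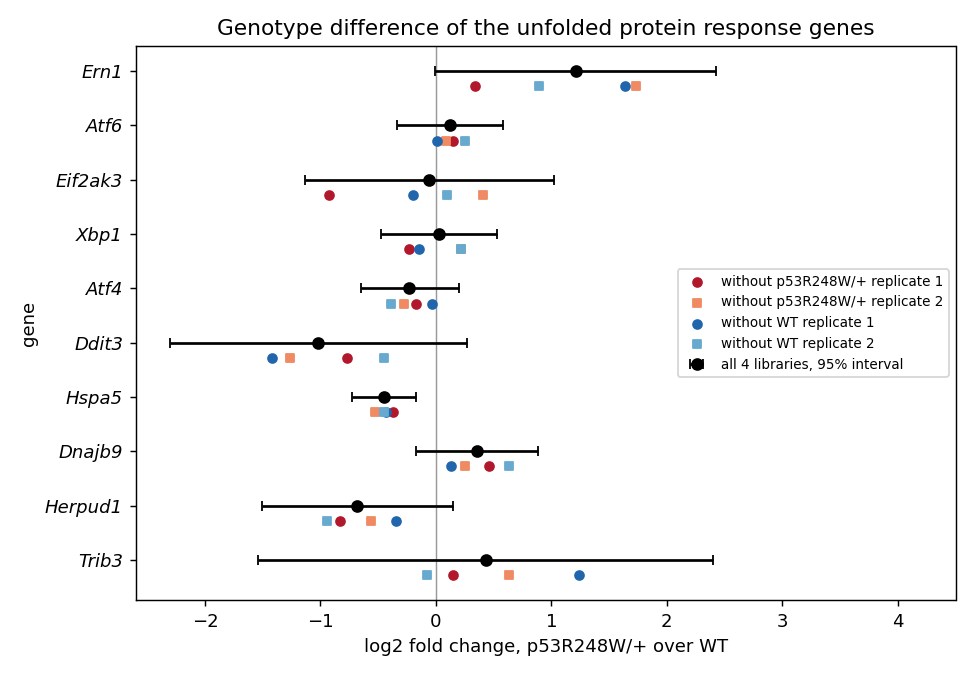
Black points give the log2 fold change of p53R248W/+ over WT for each gene with its 95% interval, and coloured points give the value without each library in turn. The Hspa5 values stay between -0.53 and -0.37, those of Ern1 spread from 0.34 to 1.73, and those of Xbp1, Eif2ak3 and Trib3 lie on both sides of 0.

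Promoter windows were examined for the elements through which the response is known to act on its targets. RefSeq sequences (GRCm38.p6, 250 bases before to 50 bases after the annotated start) were found for 9 of the 10 genes, and the other is Atf6. The ER stress response element ERSE was searched as CCAAT, any 9 bases, then CCACG, on both strands. The second form, ERSE-II, was searched as ATTGG, any 1 base, then CCACG. The element for ATF4 with its C/EBP partners, here CARE, was searched as TGATG, any 1 base, then AA, and the unfolded protein response element as TGACGTGG. ERSE was in the Hspa5 window alone, and ERSE-II in the Herpud1 window alone. Among all 32851 windows these elements were in 0.119% and 0.0365%. CARE was in the windows of Herpud1 and Trib3 and in 3.97% of all windows. TGACGTGG was in none of the 9 and in 0.676% of all windows. A match of letters is a description of the window and not evidence of binding in these cells.

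The windows of Hspa5 and Herpud1 are shown because these are the 2 targets that were lower in both p53R248W/+ libraries, and both carry a form of ERSE close to the start. Capitals mark the matched elements. In Hspa5 (chr2:34771840-34772139, plus strand) they mark ERSE, from -65 to -47 relative to the annotated start. In Herpud1 (chr8:94386179-94386478, plus strand) they mark first CARE, on the opposite strand from -112 to -105, and then ERSE-II from -52 to -42. The elements do not overlap. The Herpud1 window is counted from a RefSeq start upstream of the first exon base in the count table.
Hspa5: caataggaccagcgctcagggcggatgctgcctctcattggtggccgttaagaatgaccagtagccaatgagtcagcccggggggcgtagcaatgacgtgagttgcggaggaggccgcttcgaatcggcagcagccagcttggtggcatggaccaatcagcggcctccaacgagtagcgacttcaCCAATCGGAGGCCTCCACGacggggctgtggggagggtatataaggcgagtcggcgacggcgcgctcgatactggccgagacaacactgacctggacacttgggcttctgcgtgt
Herpud1: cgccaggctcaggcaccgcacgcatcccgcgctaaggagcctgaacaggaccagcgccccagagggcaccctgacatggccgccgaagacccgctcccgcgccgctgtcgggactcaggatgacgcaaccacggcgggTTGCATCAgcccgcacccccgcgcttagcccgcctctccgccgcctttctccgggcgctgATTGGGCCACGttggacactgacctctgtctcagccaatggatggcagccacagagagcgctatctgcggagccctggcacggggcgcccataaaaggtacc

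The same search over all genes gave 49 gene symbols with ERSE or ERSE-II, and 27 of these were found by the same symbol among the tested genes. Older names were not matched. Ero1b, which has ERSE, is in the count table under its older symbol Ero1lb and is therefore not among the 27. Ero1lb was tested, with a log2 fold change of 0.43. Counting it would lower the shares given next and raise the median. Of those 27, 19 had a log2 fold change below 0, or 70.4%, against 50.0% of all genes, and 11 were below the lower WT library in both p53R248W/+ libraries, or 40.7%, against 16.6% of all genes. Without Hspa5 and Herpud1 the counts were 17 and 9 of 25, and the median log2 fold change was -0.086, where that of the 27 was -0.29. The median of the 27 was -0.15 without WT replicate 2, -0.19 without p53R248W/+ replicate 2 and -0.18 under a stricter filter. This count was added after the data had been seen. 0 of the 27 passed an adjusted p of 0.05 in edgeR's quasi-likelihood test, and 4 were at an unadjusted p under 0.05, where 780 of all 13296 genes were. These were Hspa5, Calr and Spats2l on the lower side and Derl3 on the higher. Spats2l was a low gene, at 0.135 and 0.0826 CPM in p53R248W/+ cells and at 1.88 and 5.05 CPM in WT cells, so that it passed the filter on low counts through the WT libraries alone. Well expressed ERSE genes were not uniform, and those named here were chosen after their values were seen. Nucb1 and Syvn1 are among the 11 lower genes. Nucb1 was at 94.9 and 112 CPM in p53R248W/+ cells and at 122 and 142 CPM in WT cells. Syvn1 was at 58.0 and 66.6 CPM in p53R248W/+ cells and at 70.4 and 84.0 CPM in WT cells. Hsp90b1, whose values are given above, Canx and Pdia6 were more even between genotypes. Canx, which encodes the lectin chaperone calnexin, was at 609 and 570 CPM in p53R248W/+ cells and at 617 and 539 CPM in WT cells, and the protein disulfide isomerase gene Pdia6 was at 86.5 and 70.4 CPM in p53R248W/+ cells and at 82.9 and 69.2 CPM in WT cells. Of the 282 tested genes with CARE, 138 had a log2 fold change below 0.

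The wider pathway was described through 6 further lists of genes. No gene of any list passed an adjusted p of 0.05 by edgeR's quasi-likelihood test, DESeq2, limma-voom or the likelihood ratio test, and 14 of their 145 tested entries (Dnajc3 is in 2 of the lists) were at an unadjusted p under 0.05 in the quasi-likelihood test. Of these, 10 were lower and 4 higher, where 2.86% and 3.01% of all genes were. The 4 higher were Ufl1 and the low genes Derl3, Creb3l1 and Creb3l3, which are described at the end. The other 26 genes for ER chaperones and folding enzymes were all tested, with 15 lower, 11 higher and a median of -0.048 for the log2 fold change. Calr, which encodes the lectin chaperone calreticulin, was at 274 and 212 CPM in p53R248W/+ cells, against 430 and 299 CPM in WT cells (log2 fold change -0.58 ± 0.20, SE; unadjusted p 0.00942, adjusted p 0.824 by the edgeR quasi-likelihood test). No other gene of that list was at an unadjusted p under 0.05. The BiP co-chaperone gene Dnajb11 was at 61.9 and 73.5 CPM in p53R248W/+ cells and at 111 and 83.8 CPM in WT cells. Sdf2l1, an ER protein that works with BiP, was at 8.90 and 9.91 CPM in p53R248W/+ cells and at 23.2 and 11.9 CPM in WT cells. Pdia5, of the protein disulfide isomerase family, had its high value in p53R248W/+ replicate 1, with 26.9 and 8.01 CPM in p53R248W/+ cells and 10.3 and 5.82 CPM in WT cells.

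Genes of ER-associated degradation, the route by which misfolded proteins leave the ER, had a median log2 fold change of -0.060 over 24 tested genes, 14 lower and 10 higher. It turned to 0.044 without p53R248W/+ replicate 2 and to 0.0021 without WT replicate 1, and was -0.13 without p53R248W/+ replicate 1 and -0.11 without WT replicate 2. Of the 24, 7 were below and 4 were above both WT libraries in both p53R248W/+ libraries, against 16.6% and 16.9% of all genes. Sel1l, the adaptor of the HRD1 ubiquitin ligase, was at 261 and 225 CPM in p53R248W/+ cells and at 157 and 210 CPM in WT cells. Aup1, a further component of the route, was at 38.7 and 33.6 CPM in p53R248W/+ cells and at 17.6 and 24.3 CPM in WT cells. Sel1l and Aup1 were among the 4 that were higher. Faf2 was at 86.7 and 49.2 CPM in p53R248W/+ cells and at 49.2 and 44.5 CPM in WT cells. Nploc4, a cofactor of the segregase p97, was at 52.8 and 56.5 CPM in p53R248W/+ cells and at 80.3 and 67.3 CPM in WT cells.

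Of 26 tested targets of ATF4 and the integrated stress response, 16 were lower and 10 higher, with a median of -0.15, and 3 were at an unadjusted p under 0.05, all lower, where 2.86% of all genes were. With any 1 library left out the number was 2. Atf3, a stress-induced transcription factor that is also an immediate early gene, was at 11.5 and 11.5 CPM in p53R248W/+ cells, against 37.7 and 39.4 CPM in WT cells (log2 fold change -1.74 ± 0.47, SE). Psat1, an enzyme of serine synthesis, was at 107 and 142 CPM in p53R248W/+ cells and at 185 and 193 CPM in WT cells. Slc3a2, a subunit of amino acid transporters, was at 167 and 119 CPM in p53R248W/+ cells and at 209 and 188 CPM in WT cells. Sesn2, which is also a p53 target, was at 4.99 and 4.79 CPM in p53R248W/+ cells and at 9.35 and 14.7 CPM in WT cells. For these 4, which were named for their small p, every p53R248W/+ library was below every WT library. Of all 26, 8 were so placed and 1 was above both WT libraries in both p53R248W/+ libraries, against 16.6% and 16.9% of all genes. Without WT replicate 1, the library with the highest immediate early genes, the median of the 26 was 5.4e-04, and the part of those genes in the values of this list was not tested.

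Among 20 genes for the other eIF2alpha kinases, the phosphatases and eIF2B, the exchange factor that phosphorylated eIF2alpha inhibits, 11 were lower and 9 higher, with a median of -0.037. The median turned to 0.10 without WT replicate 2 and was -0.14 without p53R248W/+ replicate 1. The eIF2B subunit gene Eif2b2 was at 16.2 and 12.7 CPM in p53R248W/+ cells, against 34.1 and 31.8 CPM in WT cells. Eif2b1 was at 25.8 and 31.1 CPM in p53R248W/+ cells and at 41.7 and 60.5 CPM in WT cells. Eif2s3x, the gamma subunit of eIF2, was at 158 and 161 CPM in p53R248W/+ cells and at 226 and 203 CPM in WT cells. These 3 were the genes of that list at an unadjusted p under 0.05, where 2.86% of all genes were on the lower side. With a library left out the number was 0 to 2, the 0 without p53R248W/+ replicate 2. Eif2a, an initiation factor that is not a subunit of eIF2, was at 289 and 304 CPM in p53R248W/+ cells and at 253 and 255 CPM in WT cells.

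The list of IRE1 and ATF6 partners, with 19 of 20 genes tested, had a median of 0.057, with 11 genes higher and 8 lower. Its median was 0.046 to 0.23 with a library left out, highest without WT replicate 1, and 0.14 without p53R248W/+ replicate 2. At an unadjusted p under 0.05 in the quasi-likelihood test were 3 genes on the higher side, where 3.01% of all genes were. On the lower side was 1, Traf2, where 2.86% of all genes were. Both sides together held 4 genes, against 3 with DESeq2 and 1 with limma-voom. With the stricter filter and with the legacy quasi-likelihood method the number was 2. The 3 higher were Ufl1 and the low genes Creb3l1 and Creb3l3, which are described at the end. Creb3l1 passed the filter on low counts through the p53R248W/+ libraries, where it was higher. Creb3l2 and Creb3, given below, were not at an unadjusted p under 0.05 in that test. Ufl1, the ligase of the ubiquitin-like modifier UFM1, was at 86.7 and 105 CPM in p53R248W/+ cells and at 61.4 and 62.6 CPM in WT cells. Traf2, an adaptor that binds activated IRE1, was at 6.41 and 10.4 CPM in p53R248W/+ cells and at 22.4 and 16.6 CPM in WT cells. Creb3l2, a membrane-bound relative of ATF6, was at 94.8 and 72.1 CPM in p53R248W/+ cells and at 65.4 and 45.2 CPM in WT cells. Creb3, of the same family, was at 7.49 and 18.7 CPM in p53R248W/+ cells and at 3 and 6.31 CPM in WT cells.

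Genes of the ER translocon and signal peptidase, through which proteins enter the ER, had a median of -0.12 over 30 genes, 19 lower and 11 higher. Of these, 13 were below the lower WT library in both p53R248W/+ libraries and 2 were above the higher WT library in both, against 16.6% and 16.9% of all genes. Srp9, a subunit of the signal recognition particle, was at 71.5 and 57.5 CPM in p53R248W/+ cells and at 114 and 91.0 CPM in WT cells. Srprb, a subunit of its receptor, was at 17.6 and 24.8 CPM in p53R248W/+ cells and at 55.0 and 28.8 CPM in WT cells. The oligosaccharyltransferase subunit Rpn1 was at 89.6 and 66.1 CPM in p53R248W/+ cells and at 120 and 108 CPM in WT cells. Its partner Rpn2 was at 150 and 120 CPM in p53R248W/+ cells and at 187 and 174 CPM in WT cells. Without p53R248W/+ replicate 1 the median of this list was -0.29, and leaving out p53R248W/+ replicate 2 gave -0.063.

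**Figure D4:**
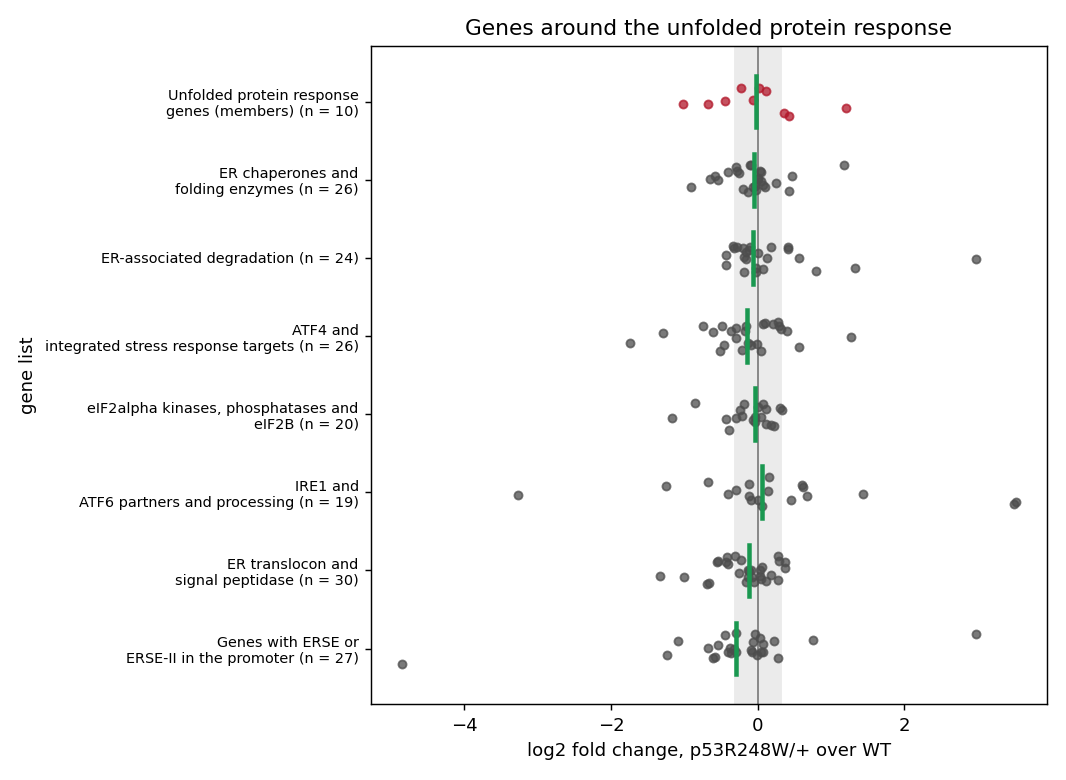
Each point is the log2 fold change of p53R248W/+ over WT of 1 tested gene, by list, with green bars at the medians. The grey band gives the spread of single genes, from the lower to the upper quartile of all 13296 tested genes (-0.31 to 0.32). The medians run from -0.29 for the ERSE genes at the bottom to 0.057 for the IRE1 and ATF6 partners. The ERSE genes shown include Hspa5 and Herpud1 but not Ero1lb, and their median was -0.086 without Hspa5 and Herpud1. The 10 unfolded protein response genes (red) are spread on both sides of 0.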

How the data were processed

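The deposited table holds raw read counts per gene, made by the authors and not normalized, for 4 libraries of LSK cells with the exon length of each gene. Per the submitters' processing notes, the tools were STAR 2.7.10a and featureCounts (Subread 2.0.3), beside FastQC 0.11.5 and edgeR 3.40.2, and the build was mm10. Treatment of strand and of reads with several alignments was not given in the sources used here. Column kits and mRNA library preparation were used, per the labels' protocols. Columns were assigned to samples by the genotype and number they are named with.

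The whole table was filtered with filterByExpr (minimum count 10, minimum total 15) and TMM-scaled. Genotypes were compared by edgeR 4.0.16 in R 4.3.3 (estimateDisp, glmQLFit with robust=TRUE and legacy=FALSE, glmQLFTest) fitting genotype alone. Adjustment was by the Benjamini-Hochberg method over all 13296 tested genes, at a threshold of 0.05. SE and 95% intervals come from the same test. RPKM used the deposited gene lengths. An exact permutation test of 2 against 2 libraries cannot go below p = 0.333, so none was used.

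The members and lists were chosen with earlier results of these data known. All members were named, with up to 4 genes per pathway list, those of smallest p with a mean of at least 5 CPM. Symbols of the pathway lists all matched, and of the marker lists Ly6g did not. One marker gene is not reported here. The floor of 3 counts covers counting error only, since no molecular identifiers are recorded in the sources used here.

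Alternatives were median-ratio and total-count scaling, DESeq2 1.42.0, limma-voom (limma 3.58.1), edgeR's likelihood ratio test, no filter, a stricter filter (mean of 5 CPM, and 1 CPM or more in 2 libraries), leaving out each library, and a block for the replicate number. The legacy quasi-likelihood method, and every alternative for the ERSE genes, were added after the data were seen.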

Additional observations from a re-analysis of the deposited data

How the results depend on the processing

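No member passed the adjusted threshold under any alternative, and Hspa5 kept its direction and an unadjusted p under 0.05 in all of them, at log2 fold changes of -0.53 to -0.37. Over all genes, 0 were called, against 6 with DESeq2, 4 with the likelihood ratio test and 0 to 1 with a library left out (Usp33, without p53R248W/+ replicate 2). The number of members at an unadjusted p under 0.05 was 2 in place of 1 with median-ratio scaling, total-count scaling, limma-voom, the likelihood ratio test and no filter, and 1 to 2 with a library left out, the second being Ern1 each time. Same-numbered libraries did not deviate together (r = 0.01 across genes), so the numbers were not taken to pair them. With the replicate number as a block (replicate block) that number was also 2, with 0 genes called and 758 of all genes at an unadjusted p under 0.05, against 780 without the block. The last count was 336 to 1083 with a library left out, lowest without p53R248W/+ replicate 1. The median of the members was -0.20 to 0.16 with a library left out, the lowest without p53R248W/+ replicate 1 and the highest without p53R248W/+ replicate 2. Signs turned with a library left out for Xbp1 (-0.23 to 0.22), Eif2ak3 (-0.93 to 0.41) and Trib3 (-0.076 to 1.24), and Trib3 had no value under the stricter filter. Of the ERSE genes, 16 to 20 were below 0 throughout. Their median was -0.26 with DESeq2, the likelihood ratio test and the legacy method, -0.18 with the stricter filter, which tests fewer genes, and -0.30 to -0.15 with a library left out. The causes of these moves were not tested. With a library left out, 1 genotype has a single library, which is assumed to vary like the others. A biological coefficient of variation of 46.0% limits what 2 libraries per genotype can show.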

Other observations

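Derl3, Creb3l1 and Creb3l3 were chosen after their values were seen. All 3 are genes of the pathway lists with a mean under 5 CPM, and their levels are given as a description. Derl3, an ER-associated degradation gene known from secretory cells, was at 13.0 and 0.991 CPM in p53R248W/+ cells and at 0.488 and 1.40 CPM in WT cells, so that 1 library holds the whole difference. That library, p53R248W/+ replicate 1, was also the one with the highest Ern1 and Pdia5. Creb3l1, a membrane-bound transcription factor gene related to Atf6, was at 3.1 and 4.3 CPM in p53R248W/+ cells (46 and 52 counts) and at 0.0697 and 0.561 CPM in WT cells (1 and 8 counts). Creb3l1 passed the filter on low counts through the p53R248W/+ libraries, where it was higher. Creb3l3, of the same family, was at 9.71 and 0 CPM in p53R248W/+ cells and at 0 and 0.912 CPM in WT cells, again with 1 high library.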
